A study of Mus musculus with 6 samples.

Results

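The 71 genes described here flank Il10, the gene that was targeted in the IL-10-/- mice, on mouse chromosome 1. They were chosen by their position and by their level in the sequenced macrophages. The deposited table held 132 protein-coding genes that lie wholly between 121019845 and 141024974 of chromosome 1 (build GRCm38), which is 10 Mb to either side of Il10 at 131019845 to 131024974. Of these, 75 reached at least 1 FPKM (the fragments of a gene relative to its length and to all fragments mapped in that library) in at least 3 of the 6 libraries. Il10 itself and Cxcr4, Ctse and Chil1 were left out by name, which leaves the 71 members out of 23302 genes in the table and 11838 genes tested.

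The cells were macrophages that had been taken with F4/80 microbeads from malignant pleural effusions (MPE), the tumor-driven fluid of the chest cavity, of C57BL/6 mice. All mice had received an intrapleural injection of MC38 cells, a mouse colon adenocarcinoma line, 10 days earlier, and were 6 to 8 weeks old and matched for sex. There were 3 libraries of WT mice and 3 libraries labelled IL-10-/-, and the study compared the genotypes to ask how IL-10 shapes these macrophages. WT mice were bought from Vital River, while Jackson Laboratory supplied the IL-10-/- mice on their C57BL/6 background, so that supplier and genotype cannot be told apart here. The labels mention culture of the isolated cells for later use and do not say whether the sequenced RNA was taken before or after it. Whether mice were pooled for a library is not in the labels, and p-values therefore measure only the spread between libraries.

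A targeted allele is inherited together with the DNA beside it. When targeting is done in embryonic stem cells of one strain and the mice are then crossed to another, a stretch of chromosome around the target can stay that of the first strain. An FPKM value does not show which strain's allele was transcribed.

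The transcript of the targeted gene was not lower in the libraries labelled IL-10-/-. Il10 stood at 6.43, 33.3 and 7.33 FPKM under the WT label and at 59.2, 62.0 and 42.4 FPKM under the IL-10-/- label (adjusted p = 0.14 from limma). The groups are therefore named by their labels. Summed over 8 genes, macrophage markers reached 7106 to 9118 FPKM with the WT label and 10433 to 13163 FPKM under the IL-10-/- label. None was at 0 in all libraries. Lyz2 alone gave 3612 to 5460 FPKM of this sum in WT and 6714 to 9252 FPKM under the IL-10-/- label. The groups of Lyz2 and Csf1r did not overlap, while those of Adgre1, Cd68, Mertk, Fcgr1, C1qa and C1qb did. Neutrophil markers (8 genes) summed to 286 to 390 and 109 to 157 FPKM, B cell markers (8 genes) to 45.4 to 52.5 and 14.1 to 35.4 FPKM, and T cell markers (8 genes) to 38.0 to 54.5 and 52.6 to 118 FPKM, in the same order. Erythroid markers (5 genes) summed to 2857 to 6152 and 470 to 1846 FPKM, again WT first, and markers of proliferation (8 genes) to 42.0 to 85.6 and 45.9 to 125 FPKM. Markers of epithelial or MC38 tumor cells (6 genes) summed to 6.04 to 10.2 and 5.78 to 11.7 FPKM, and mesothelial markers (4 of 5 in the table) to at most 3.22 FPKM in any library. The part of these cells in the results below was not tested. In bulk RNA, fewer cells of a type and less RNA per cell cannot be told apart. Absolute depth is unknown, but the steps between low FPKM values put the depth of the 6 libraries at 0.99 to 1.44 times that of WT replicate 1.

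Of the 71 genes flanking Il10, Rab7b alone passed the test, and its level was below that of WT under the IL-10-/- label. With limma on log2(FPKM + 1) and Benjamini-Hochberg adjustment over the 11838 genes tested, no flanking gene rose and 1 fell at an adjusted p under 0.05, which is 1.41% of the members. Over all genes tested 1.09% were called, 0.608% higher and 0.482% lower. At an unadjusted p under 0.05, 5 members were higher and 5 lower, against 10.8% of all genes in either direction. Of the 5 lower, Fcmr passed the filter through WT libraries only. The names left out by the rule matter for this count, since with them put back 2 genes rose and 2 fell of 75, or 5.33%. All fold changes here are differences of log2(FPKM + 1), so that the change of a gene at low FPKM is understated.

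Rab7b encodes a small GTPase of late endosomes, lysosomes and the trans-Golgi network, which in macrophages has been tied to the lysosomal breakdown of Toll-like receptors. The gene (ENSMUSG00000052688) lies on the plus strand of chromosome 1 from 131688695 to 131715439, 0.664 Mb beyond Il10, and its principal transcript has 6 exons. The WT libraries had 60.7, 58.8 and 67.1 FPKM and those with the IL-10-/- label 20.9, 14.4 and 19.9 FPKM. The groups did not overlap, and the lowest WT library stood well above the highest library of the other label. Rab7b averaged 62.2 ± 4.38 FPKM in WT and 18.4 ± 3.49 FPKM in the others (SD, n = 3 each), a level 3.38 times as high in WT. On the log2 scale Rab7b fell by 1.72 (standard error 0.17, 95% interval from -2.10 to -1.34, adjusted p = 0.004 from limma). An exact two-sided permutation test gave p = 0.1, the smallest that 3 against 3 libraries allow. Rab7b kept an adjusted p under 0.05 in all 16 other settings tried, which include leaving out each library in turn. No other gene of the table overlaps its body.

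No gene directly beside Rab7b was called lower with it. Ctse, the cathepsin E gene that the rule leaves out, lies on the same strand and ends 13189 bases before Rab7b begins. Its level was 3.30, 2.27 and 2.50 FPKM under the WT label and 34.7, 35.1 and 33.6 FPKM under the IL-10-/- label, higher where Rab7b was lower. Srgap2, whose protein bends membranes and regulates the actin cytoskeleton, is the nearest member before Rab7b. It was at 31.2, 22.6 and 22.5 FPKM in WT and at 35.1, 34.7 and 44.1 FPKM under the IL-10-/- label. The groups of Srgap2 did not overlap, but its log2 fold change of 0.57 (standard error 0.18) missed the threshold (adjusted p = 0.24 from limma). Slc41a1, a magnesium transporter gene and the nearest member after Rab7b, was at 4.44, 3.41 and 2.94 FPKM in WT and at 4.88, 2.56 and 2.66 FPKM in the others, with overlapping groups. Next to it lies Rab29, another small GTPase gene of the endosomal and lysosomal system. Rab29 was at 20.1, 24.97 and 27.4 FPKM in WT and at 25.9, 30.5 and 22.9 FPKM under the IL-10-/- label, and its groups overlapped (log2 fold change 0.13, 95% interval from -0.26 to 0.51). The map of differences along the chromosome shows Rab7b apart from the other members on both sides.

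**Figure D1:**
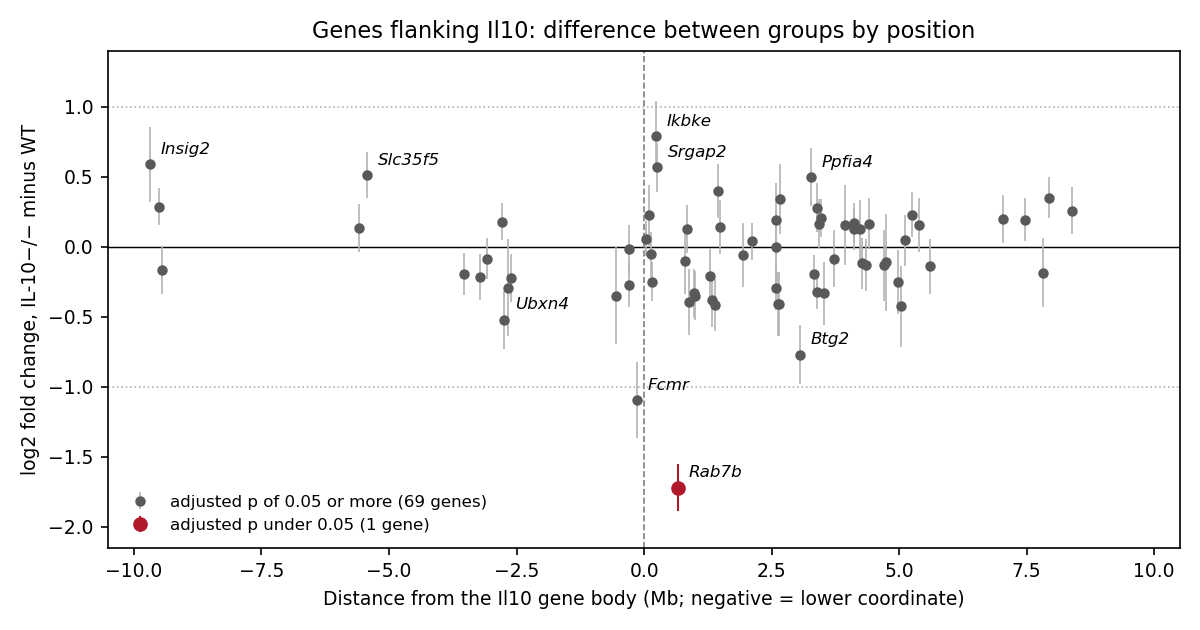
Log2 fold change (libraries labelled IL-10-/- minus WT, on log2(FPKM + 1)) of 70 of the 71 genes against their distance from the Il10 gene body in Mb, with negative distances for genes at lower coordinates. Points are the estimates from 3 against 3 libraries, bars are 1 standard error from limma, the dashed line marks Il10 and the dotted lines a fold of 2. Rab7b, at -1.72, is the only gene with an adjusted p under 0.05.

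None of the 5 nearest members on either side of Il10 passed the test. On the lower side the cytokine gene Il19 and the immunoglobulin receptor gene Pigr did not reach the level of the members. Il19, a cytokine gene of the IL-10 family, was at 0.0906 FPKM or less in every library, and Pigr, which carries IgA across epithelia, at 0.0114 FPKM or less. On the other side Mapkapk2, 0.029 Mb from Il10, was among the most abundant members. It encodes MK2, a kinase downstream of p38 that stabilizes cytokine mRNAs. Its level was 137, 127 and 121 FPKM in WT and 133, 133 and 135 FPKM under the IL-10-/- label, and its log2 fold change was 0.06, with a 95% interval from -0.23 to 0.35.

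The 250 bases before the RefSeq start of Mapkapk2 are shown because they are the promoter nearest to the targeted gene and Mapkapk2 is among the most abundant members. They lie on the minus strand of GRCm38.p6 at chr1:131097844-131098093, with the match to the PU.1 core in capitals. PU.1 is a transcription factor that macrophages need for their development.
Mapkapk2: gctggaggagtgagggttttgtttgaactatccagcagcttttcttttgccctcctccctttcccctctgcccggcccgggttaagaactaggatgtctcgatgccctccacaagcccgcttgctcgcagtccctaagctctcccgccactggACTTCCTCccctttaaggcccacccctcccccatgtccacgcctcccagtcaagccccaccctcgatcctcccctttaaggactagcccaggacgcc
The match is on the opposite strand and ends 89 bases before the start. The letters searched were GAGGAAGT on both strands, which 2.44% of all 32851 RefSeq promoters hold in the same window. Entries were found for 63 of the 71 members, and Mapkapk2, Rassf5 and Elk4 held the letters. A match is a description of the sequence and not evidence of binding.

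Fcmr, the receptor for the constant part of IgM, which is chiefly a lymphocyte gene, lies 0.139 Mb before Il10 and is its nearest member on that side. It was at 1.19, 2.48 and 2.86 FPKM in WT and at 0.814, 0.398 and 0.190 FPKM under the IL-10-/- label. The groups did not overlap, but all values were low. The log2 fold change of -1.10 (standard error 0.27) missed the threshold (adjusted p = 0.14 from limma). Fcmr is the 1 member that met the level of 1 FPKM in WT libraries only, so that it had to differ to be counted at all. The B cell markers given above were also lower in each of the libraries labelled IL-10-/- than in any WT library, and Cd79a, a subunit of the B cell receptor, ran from 17.7 to 21.6 FPKM in WT and from 3.52 to 11.1 FPKM in the others. Their part in the value of Fcmr was not tested.

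Of the other nearest members, Ikbke is described with the immune genes. Pfkfb2, which encodes an enzyme that sets the level of the glycolytic activator fructose 2,6-bisphosphate, stood at 2.68, 1.86 and 1.98 FPKM in WT and at 1.95, 2.04 and 2.37 FPKM under the IL-10-/- label. Yod1, a deubiquitinase gene that overlaps Pfkfb2, was at 2.50, 2.23 and 2.40 FPKM in WT and at 1.77, 1.62 and 2.03 FPKM in the others, with groups that did not overlap (log2 fold change -0.27, adjusted p = 0.65 from limma). Cd55, which encodes decay-accelerating factor, an inhibitor of complement on cell surfaces, ran from 1.86 to 3.50 FPKM in WT and from 0.866 to 3.75 FPKM in the other group. Dars, the aspartyl-tRNA synthetase gene, ran from 27.6 to 37.4 FPKM in WT and from 22.8 to 31.0 FPKM under the IL-10-/- label. Both spans overlapped. Beyond Mapkapk2, Dyrk3, the gene of a kinase that dissolves stress granules, ran from 1.03 to 2.33 FPKM in WT and from 1.85 to 2.39 FPKM in the others. Eif2d, a translation initiation factor gene, ran from 7.14 to 8.87 FPKM in WT and from 6.61 to 8.78 FPKM in the others. Rassf5, whose protein acts downstream of Rap1 in leukocyte adhesion, was at 44.4, 35.6 and 38.8 FPKM in WT and at 31.5, 35.7 and 32.0 FPKM under the IL-10-/- label (log2 fold change -0.25, 95% interval from -0.57 to 0.07). Eif2d and Rassf5 overlap each other, as Pfkfb2 and Yod1 do, and the sources used here do not give whether reads were counted by strand.

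Among the 10 members with roles as immune receptors, in complement or in leukocyte signaling, none passed the test. The median log2 fold change of these 10 was 0.04, with 6 above 0. Ikbke, which encodes the kinase IKK-epsilon of the antiviral pathway that turns on interferon genes, had the largest log2 fold change above 0 of all members. It was at 56.2, 28.7 and 31.8 FPKM in WT and at 78.3, 59.1 and 59.3 FPKM under the IL-10-/- label, so the groups did not overlap, though WT replicate 1 came close to the other label. Ikbke averaged 38.9 ± 15.1 FPKM in WT and 65.6 ± 11.03 FPKM in the others (SD, n = 3 each), and the log2 fold change of 0.79 (standard error 0.26) had an adjusted p of 0.27 from limma. Without WT replicate 1, the highest WT library, it was 1.08 with an adjusted p of 0.04 from limma. With any other library left out it ran from 0.61 to 0.86, with an adjusted p from 0.27 to 0.64 from limma.

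Ptprc, which encodes CD45, the phosphatase found on all leukocytes, was at 168, 146 and 140 FPKM in WT and at 210, 171 and 145 FPKM under the IL-10-/- label. Its groups overlapped, and the 95% interval of its log2 fold change ran from -0.20 to 0.59. Ptpn7, a tyrosine phosphatase gene of blood cells, ran from 20.7 to 27.3 FPKM in WT and from 24.8 to 28.3 FPKM under the IL-10-/- label. Nek7, whose protein is needed to assemble the NLRP3 inflammasome, ran from 9.72 to 10.4 FPKM in WT and from 10.0 to 13.8 FPKM in the others. Lax1, an adaptor gene of lymphocytes, ran from 2.65 to 3.74 FPKM in WT and from 1.46 to 3.05 FPKM in the others. Ptpn7, Nek7 and Lax1 all had overlapping groups.

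In the group of 17 members that act in transcription, RNA or translation none passed the test, and 11 were below 0, with a median log2 fold change of -0.17. Btg2, an antiproliferative gene induced by p53 whose protein speeds the decay of mRNAs, had the smallest p of them. It was at 108, 139 and 116 FPKM in WT and at 94.2, 55.7 and 65.9 FPKM under the IL-10-/- label. The groups did not overlap, and the log2 fold change was -0.77 (standard error 0.21, adjusted p = 0.18 from limma).

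The 250 bases before the RefSeq start of Btg2 are shown because Btg2 has the third smallest p of the members and its window holds a cyclic AMP response element (CRE). They lie on the minus strand of GRCm38.p6 at chr1:134079156-134079405, with the element in capitals.
Btg2: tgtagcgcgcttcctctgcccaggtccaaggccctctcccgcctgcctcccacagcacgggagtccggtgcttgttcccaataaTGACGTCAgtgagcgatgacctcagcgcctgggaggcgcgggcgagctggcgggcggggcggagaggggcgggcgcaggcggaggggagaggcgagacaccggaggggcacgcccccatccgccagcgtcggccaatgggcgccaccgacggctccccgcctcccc
The letters TGACGTCA, which read the same on both strands, end 158 bases before the start and occur in this window in 1.55% of all RefSeq promoters. Klhl12 and Tmem183a also held them. The interferon-stimulated response element (ISRE) was found in Ccnt2, Elk4 and Nav1 and in 2.98% of all promoters, the GAS element TTCNNNGAA in Dennd1b, Ppp1r12b and Tmem9 and in 7.02%, and the AP-1 element TGANTCA in Mdm4, Nucks1 and Yod1 and in 6.75%. None of the 3 other members with the smallest p and an entry (Fcmr, Srgap2 and Ikbke) held any of these letters, which says only that the letters are not in this window.

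Besides Btg2, the groups of 1 further gene of this list did not overlap. This was Zbtb41, a zinc finger gene, which ran from 1.60 to 2.35 FPKM in WT and from 2.49 to 2.70 FPKM in the others (log2 fold change 0.26, adjusted p = 0.69 from limma). Snrpe, a core protein gene of the spliceosome, was at 141, 290 and 268 FPKM in WT and at 235, 273 and 255 FPKM under the IL-10-/- label, and WT replicate 1 alone stood low. Without it the log2 fold change of Snrpe was -0.13 in place of 0.19. Ppp1r15b, which directs a phosphatase to the translation factor eIF2-alpha, was at 60.9, 54.5 and 52.3 FPKM in WT and at 54.1, 56.8 and 61.4 FPKM in the others (95% interval of the log2 fold change from -0.26 to 0.34). The p53 inhibitor gene Mdm4 ran from 14.2 to 26.3 FPKM in WT and from 15.2 to 20.2 FPKM under the IL-10-/- label. Both members for DNA replication and repair also had overlapping groups. Mcm6, a subunit gene of the replicative helicase, was at 10.0, 13.3 and 15.8 FPKM in WT and at 15.0, 13.2 and 5.29 FPKM in the others, where replicate 3 stood low. The proliferation markers were likewise lowest of this label in replicate 3. Ube2t, the gene of a ubiquitin-conjugating enzyme of DNA crosslink repair, ran from 0.931 to 2.37 FPKM in WT and from 1.24 to 3.01 FPKM under the IL-10-/- label.

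Membrane traffic, cytoskeleton and protein handling is the role list that holds Rab7b, and its 21 other members did not pass the test. The median log2 fold change of the 22 was -0.08, and 6 of them had groups that did not overlap, 4 higher and 2 lower (27.3%, against 15.4% of all genes tested). Actr3, which encodes a core subunit of the Arp2/3 complex that nucleates actin branches, had the highest level of all members. It was at 662, 552 and 521 FPKM in WT and at 678, 675 and 547 FPKM under the IL-10-/- label (95% interval of the log2 fold change from -0.26 to 0.52). Arl8a, a small GTPase gene that moves lysosomes along microtubules, was at 68.9, 57.6 and 54.0 FPKM in WT and at 68.4, 65.3 and 68.9 FPKM in the others. Its interval ran from -0.15 to 0.49, so that a drop of the size of that of Rab7b lies outside it.

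Ubxn4, a gene of protein degradation at the endoplasmic reticulum, was at 54.5, 76.8 and 81.1 FPKM in WT and at 43.7, 42.6 and 60.6 FPKM under the IL-10-/- label (log2 fold change -0.52, adjusted p = 0.39 from limma). Its groups overlapped, since WT replicate 1 lay below the highest library of the other label. Dennd1b, which activates the small GTPase Rab35, was at 6.15, 5.95 and 6.09 FPKM in WT and at 8.86, 8.31 and 6.97 FPKM in the others, with no overlap (log2 fold change 0.35, adjusted p = 0.43 from limma). Rab3gap1, a regulator of Rab3 and Rab18, ran from 5.91 to 6.83 FPKM in WT and from 5.36 to 6.57 FPKM under the IL-10-/- label. Rabif, a chaperone gene of Rab proteins, ran from 7.62 to 9.07 FPKM in WT and from 9.52 to 9.97 FPKM in the others, so its groups did not overlap either. Rab7b was the only Rab gene or Rab regulator of the list with a called difference.

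**Figure D2:**
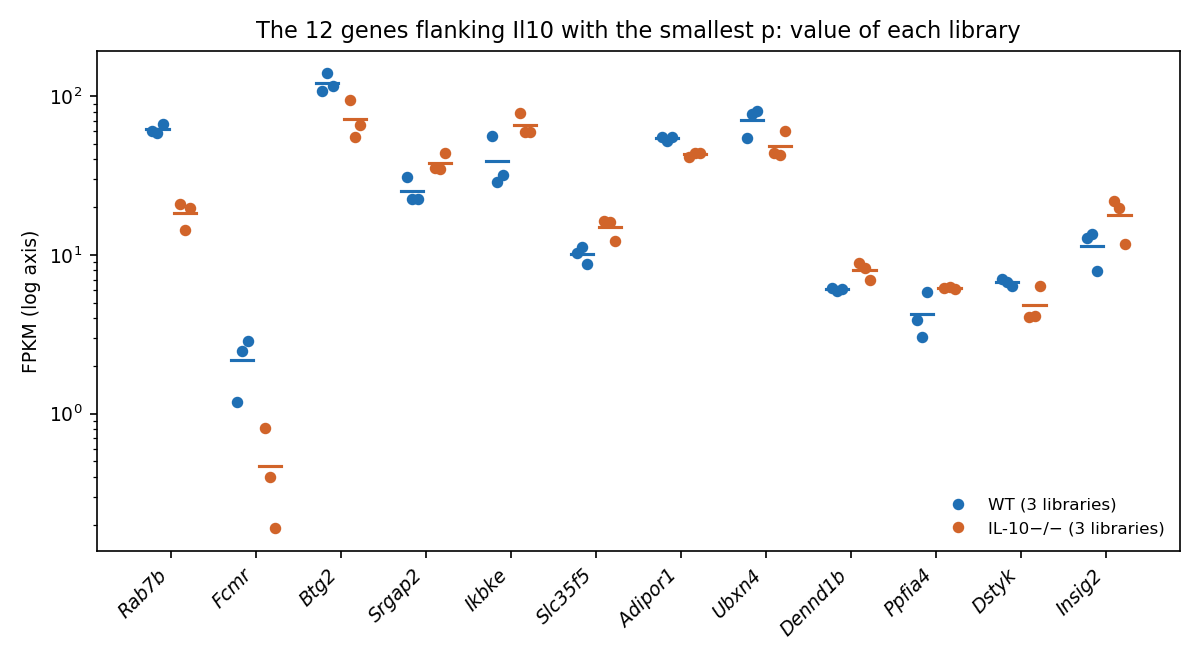
FPKM on a log axis of each of the 6 libraries for the 12 genes with the smallest p, with WT in blue, libraries labelled IL-10-/- in orange and the mean of each group as a line. The groups of Rab7b lie farthest apart for their spread, from 58.8 to 67.1 FPKM in WT and from 14.4 to 20.9 FPKM in the others, and Fcmr has the lowest level.

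Metabolic enzymes, transporters and kinases made up 11 members, of which none passed the test and 6 were above 0, with a median log2 fold change of 0.13. Slc35f5, a solute carrier gene, was at 10.3, 11.3 and 8.79 FPKM in WT and at 16.4, 16.1 and 12.3 FPKM under the IL-10-/- label. Its groups did not overlap (log2 fold change 0.51, adjusted p = 0.27 from limma). Adipor1, the adiponectin receptor gene, was at 55.7, 51.9 and 55.2 FPKM in WT and at 41.4, 43.7 and 44.1 FPKM in the others, with no overlap and little spread in either group (log2 fold change -0.33, standard error 0.12, adjusted p = 0.35 from limma). These are differences of less than a fold of 2 on either scale.

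Dstyk, a dual-specificity protein kinase gene, was at 7.03, 6.71 and 6.41 FPKM in WT and at 4.09, 4.14 and 6.38 FPKM under the IL-10-/- label, where replicate 3 nearly reached WT. Insig2, whose protein holds the cholesterol sensor SCAP in the endoplasmic reticulum, was at 12.9, 13.5 and 7.88 FPKM in WT and at 22.0, 19.7 and 11.8 FPKM in the others. Its groups overlapped, because replicate 3 was the lowest under each label (log2 fold change 0.59, adjusted p = 0.50 from limma). Rnpep, an aminopeptidase gene, was at 143, 80.4 and 94.2 FPKM in WT and at 114, 106 and 116 FPKM in the others. Nuak2, a kinase gene related to AMPK, was at 39.0, 31.0 and 31.9 FPKM in WT and at 24.1, 25.7 and 39.6 FPKM in the others. In both the highest library lay apart from the rest of its own group.

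The 9 members in no role list did not pass the test either. Ppfia4, the gene of the scaffold protein liprin-alpha-4, was at 3.88, 3.02 and 5.82 FPKM in WT and at 6.22, 6.31 and 6.13 FPKM under the IL-10-/- label (log2 fold change 0.50, adjusted p = 0.43 from limma). Cacna1s, the calcium channel gene of skeletal muscle, was at 2.37, 2.71 and 6.08 FPKM in WT and at 1.93, 2.28 and 2.83 FPKM in the others, with a log2 fold change of -0.42 that was -0.09 without WT replicate 3. Gm38394 shares its locus with Zc3h11a and Zbed6, and how reads were split among these 3 is uncertain. In all, 32 members overlap another gene of the table, 11 of them a protein-coding one.

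**Figure D3:**
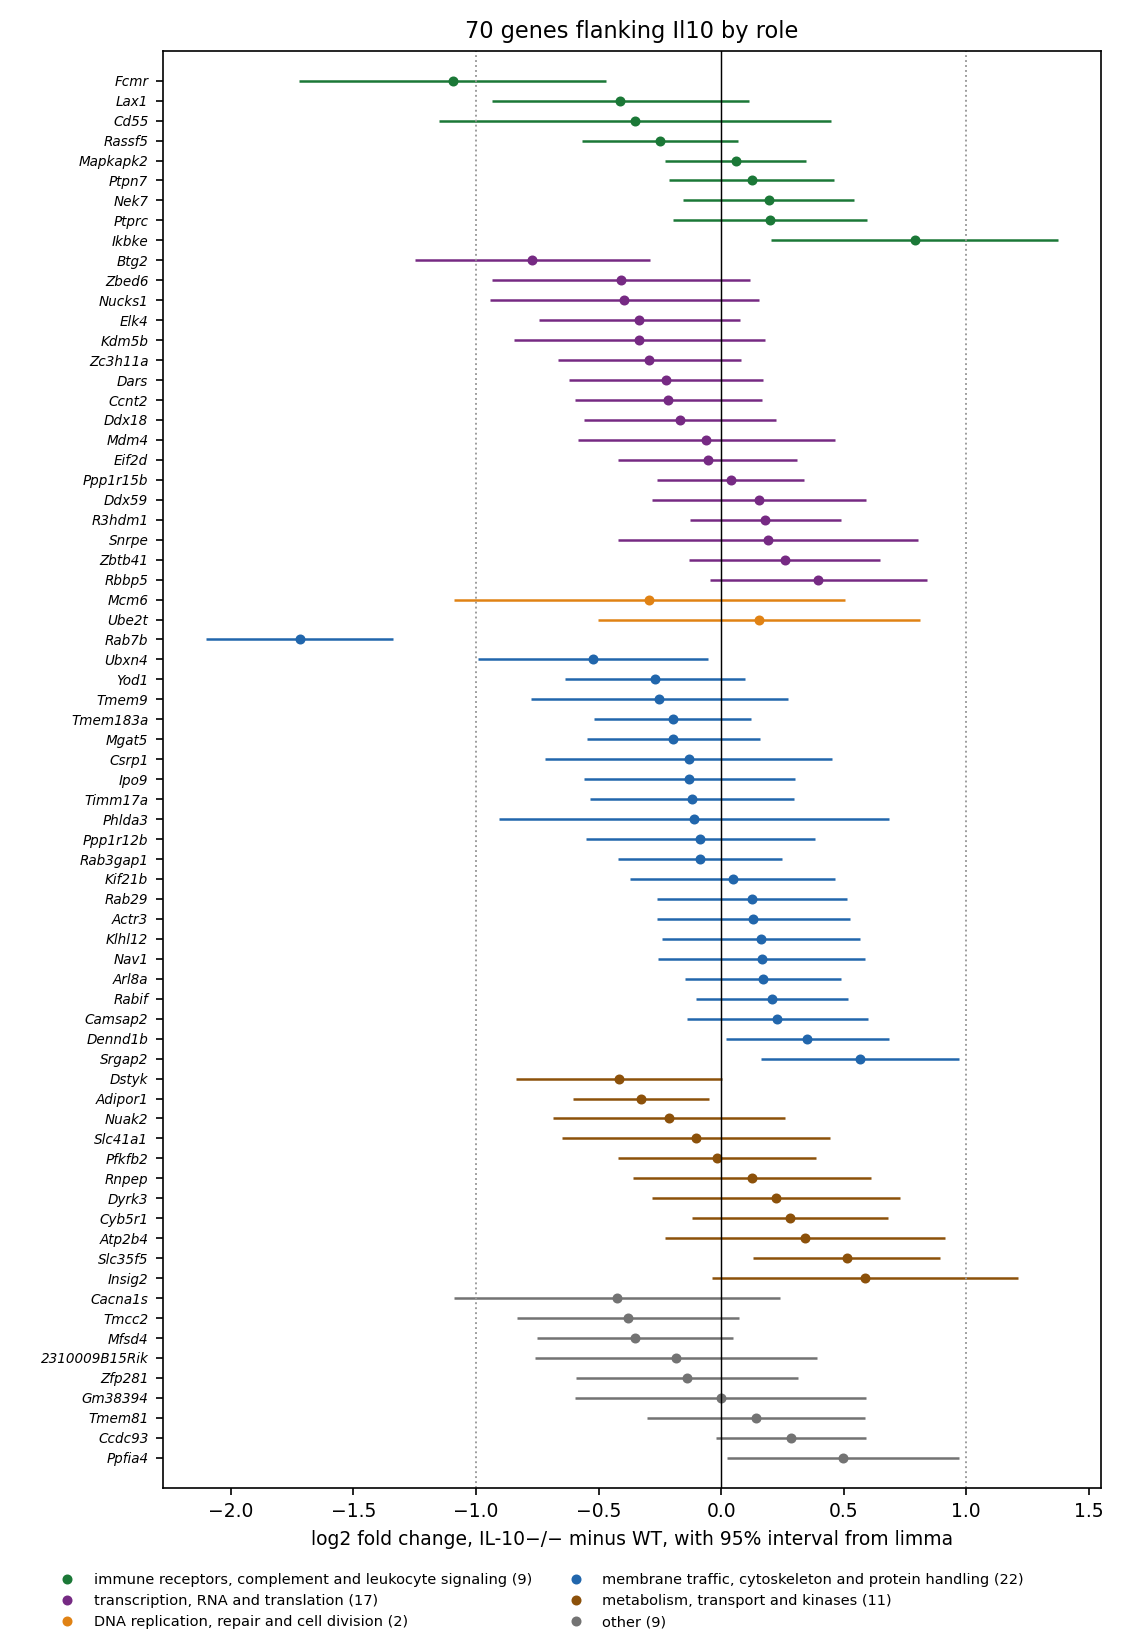
Log2 fold change (libraries labelled IL-10-/- minus WT, on log2(FPKM + 1)) of 70 of the 71 genes, colored by role list with the number of genes, with the 95% interval of each from limma (3 libraries per group). Dotted lines mark a fold of 2. Of the genes drawn, the interval of Rab7b alone lies wholly beyond a fold of 2.

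The spread of the 71 values shows how much these libraries allow to be said of the genes that did not pass. The median log2 fold change of the members was -0.06, with 32 above 0 and 39 below, against -0.0025 over all genes tested. Once every library was rescaled to the same FPKM total, the median of the members was 0.018 and that of all genes tested 0.07, so that both moved up and the members stayed the lower. For 63 of the 71 members the 95% interval lay within a fold of 2 in both directions (88.7%, against 86.1% of all genes tested). The 8 whose interval reached a fold of 2 were Rab7b, Fcmr, Btg2, Ikbke, Insig2, Cd55, Mcm6 and Cacna1s. The thresholds of the study were a fold change of at least 2 with an unadjusted p under 0.05. By these, 2 of the 71 members were lower (Rab7b and Fcmr) and none higher. Fcmr met the filter in WT libraries only, so that its direction was fixed by the filter. Of all genes tested, 2.18% met these thresholds, 0.887% higher and 1.29% lower. The level itself ranged widely. The mean over libraries had a median of 12.1 FPKM among the members, and 68 members reached 1 FPKM in every library. Together the members made up 0.215% to 0.288% of the summed FPKM of a library.

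At the edge of the level that chose the members, Fcmr was just inside, with a third-highest value of 1.19 FPKM. Tmem163 and Aspm were just outside, at 0.960 and 0.922 FPKM. By position, Insig2 was the outermost member, 9.69 Mb from Il10. There were 16 members before Il10 and 55 after it.

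The groups did not overlap in 17 members, 9 higher and 8 lower than in WT, or 23.9%. Over all genes tested the share was 15.4%. Fcmr is counted among the lower members, here and within 2 Mb, though the filter, which it met in WT libraries only, kept its groups apart. By distance, 8 of the 22 members within 2 Mb of Il10 had groups that did not overlap, 6 of them lower. From 2 to 5 Mb there were 4 of 33, and from 5 to 10 Mb there were 5 of 16, all higher. Of protein-coding genes on the same chromosome from 10 to 20 Mb away, 4 of 22 did not overlap, beyond 20 Mb 106 of 522 (20.3%), and on other chromosomes 15.3%. These shares rest on few genes near Il10, neighboring genes are not independent, and the differences between distances were not tested. The median log2 fold change was -0.16 within 2 Mb, -0.11 from 2 to 5 Mb and 0.17 from 5 to 10 Mb.

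The same distances were counted for an adjusted p under 0.05, without the names left out by the rule. Of the 22 members within 2 Mb 1 was called, of the 33 from 2 to 5 Mb and the 16 from 5 to 10 Mb none, and of the 22 genes from 10 to 20 Mb none. At an unadjusted p under 0.05 from limma the counts for these 4 distances were 4, 4, 2 and 6, with Fcmr in the first. The share over all genes tested was 10.8%. Beyond 20 Mb on chromosome 1, 12 genes rose and 5 fell of 522, which is 3.26%, against 0.845% of 9944 protein-coding genes on other chromosomes. Many of these calls lie in clusters and are not independent. Ugt1a7c, Ugt1a6b, Ugt1a5, Ugt1a2 and Ugt1a1 lie together 42.8 Mb from Il10. Gm4955, Pydc4, Pyhin1, Pydc3 and Mnda lie together at 42.4 to 42.9 Mb, and Slamf7 and Slamf8 at 40.6 and 41.6 Mb. Ctse, Chil1 and Cxcr4 would each add a called gene within 5 Mb of Il10.

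**Figure D4:**
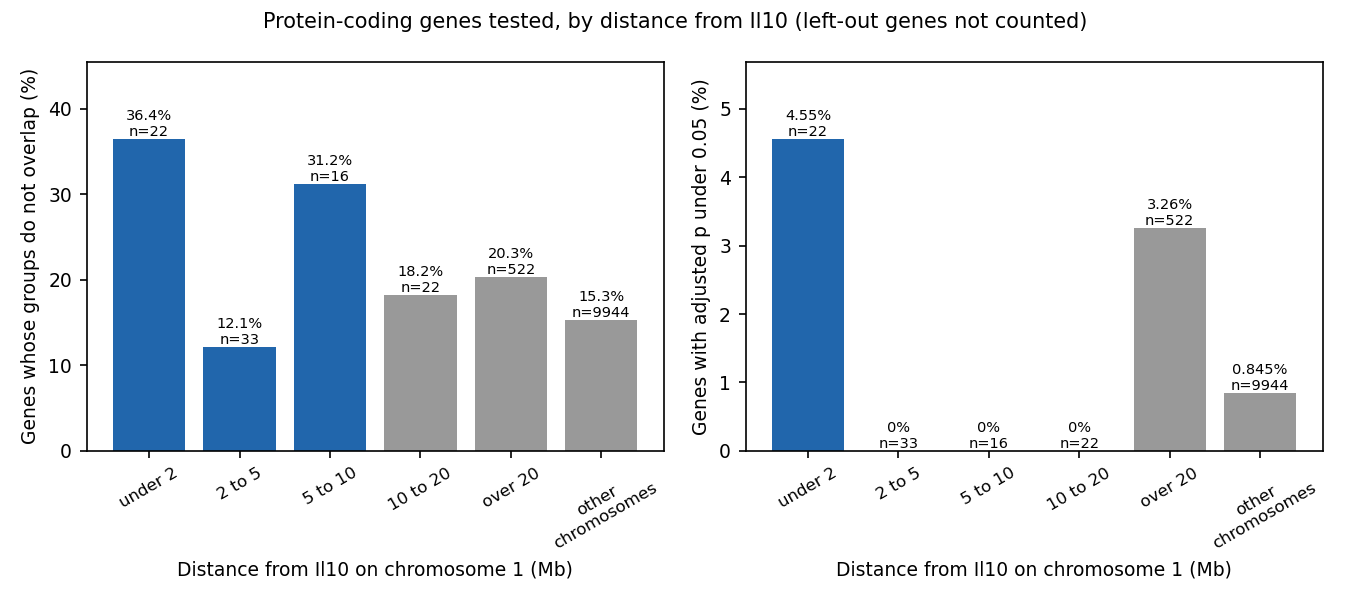
Share of protein-coding genes whose groups do not overlap (left) and share with an adjusted p under 0.05 from limma (right), in percent, by distance from Il10 in Mb, with n genes above each bar. Blue bars hold the 71 members and gray bars the rest of chromosome 1 and the other chromosomes, without the 4 names left out by the rule. On the left the bar within 2 Mb reads 36.4% and that of other chromosomes 15.3%. The bar within 2 Mb includes Fcmr, whose groups the filter kept apart.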

How the data were processed

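MPE macrophage RNA of 3 WT and 3 IL-10-/- samples, grouped by the genotype and replicate number in their labels, was sequenced as paired ends from poly(A) libraries. The authors deposited 1 table of FPKM per gene and library. The submitters' processing notes name GRCm38, while aligner, counting tool, annotation release and use of strand were not stated in the sources used here. The table also holds the authors' fold changes, p-values, q-values and marks, which were not used.

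The test took every gene that reached 1 FPKM in 3 or more libraries and was run on log2(FPKM + 1) with limma 3.58.1 in R 4.3.3 (intensity trend, two-sided, Benjamini-Hochberg over 11838 genes). The code was tested on simulated data. Single values were compared with an exact permutation test. All 71 members were found at identical positions in GENCODE mouse release M21, which gave strand and exons, and promoters came from RefSeq on GRCm38.p6.

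The members and lists were chosen with earlier results of these data known. Members named with values were every gene with an adjusted p under 0.05, the 12 with the smallest p, the 5 nearest to Il10 on each side, the 8 most abundant, the 5 with the largest fold change in each direction and the 3 most abundant of each role list. Nek7, Lax1, Ptpn7, Mdm4, Rab29, Rab3gap1, Rabif, Slc41a1, Gm38394, Zbtb41, Ctse, Cd79a and genes outside the members were named after their values were seen. Alternatives were other scalings, pseudocounts, filters, variance models and window widths, protein-coding genes only, a replicate block and each library left out in turn. Putting back the genes left out by the rule was added after the data were seen. FPKM keeps no read totals, so precision is given by the spread between libraries. The values of 1 member are not reported here, though the counts and medians over the members include it.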

Additional observations from a re-analysis of the deposited data

How the results depend on the processing

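The count of members that rose (0) and fell (1) at an adjusted p under 0.05 from limma stayed as it was under FPKM rescaled to an equal sum, quantile normalization, a pseudocount of 0.1, the other filters, protein-coding genes only, no variance trend, the replicate block and the narrower and wider windows. With limma's array weights 2 rose and 4 fell. Ikbke (log2 fold change 0.95), Srgap2 (0.60), Fcmr (-1.24), Btg2 (-0.93) and Ubxn4 (-0.74) joined Rab7b, where the direction of Fcmr was fixed by the filter. The count over all genes went from 129 to 482. With the genes left out by the rule put back, 2 rose and 2 fell, and 6 met a fold of 2 with an unadjusted p under 0.05, against 2 without them and 1 with a filter at 5 FPKM, which Fcmr does not reach. Without 1 library the count of members that rose ran from 0 to 1 (Ikbke, without WT replicate 1), the count at a fold of 2 from 1 to 3, and the median log2 fold change from -0.086 to -0.0032. The median was 0.018 with FPKM rescaled to an equal sum, a scaling that moved the median of all genes from -0.0025 to 0.07 as well. It was -0.0042 with no filter, -0.11 within 5 Mb and -0.0021 within 20 Mb. The settings without a filter and with other windows take in other genes, and the cause of the differences with array weights was not tested. Rab7b ran from -1.86 to -1.56, with an adjusted p from 0.0013 to 0.041, the latter with no filter on low values.

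Some values near 0 changed sign without being called. Pfkfb2 was at 0.019 with quantile normalization, 0.035 with FPKM rescaled and 0.03 with array weights, and Eif2d at 0.023 with FPKM rescaled. Both rescaled values carry the shift of all genes given above and lie below the median of all genes under that scaling. With quantile normalization that median was 0.011. Without 1 library, the log2 fold change ran from -0.087 to 0.094 for Pfkfb2, from -0.14 to 0.046 for Eif2d, from -0.13 to 0.38 for Snrpe, from -0.074 to 0.35 for Ube2t, from -0.050 to 0.36 for Rnpep, from -0.0094 to 0.10 for Ppp1r15b and from -0.55 to 0.13 for Mcm6. Deviations of same-numbered libraries from their group means correlated at 0.086, 0.204 and 0.09 across genes, and each library correlated best with its own number, a hint from the data and not from the design. With the replicate block 61 genes were called in all against 129, and Rab7b, the 1 member that fell, had an adjusted p of 0.025 from limma.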

Other observations

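Among the genes of the window that did not reach the level of the members, Fam72a lies between Srgap2 and Ctse, 0.503 Mb from Il10. It was at 0.437, 0.373 and 0.493 FPKM in WT and at 1.80, 0.848 and 0.901 FPKM under the IL-10-/- label, with groups that did not overlap. Tmem163, 3.34 Mb before Il10 and partly overlapping Mgat5, was at 0.960, 1.27 and 1.16 FPKM in WT and at 0.814, 0.194 and 0.516 FPKM in the others, again with no overlap. Other genes below that level whose groups did not overlap were Thsd7b, Ren1, Etnk2, Pik3c2b, Map3k19 and AA986860. Most genes of the window below that level had overlapping groups. Over all genes tested, the share whose groups did not overlap was 15.4%. Ren1, 2.33 Mb from Il10, was at 0 FPKM in every WT library and at 1.19, 1.14 and 0.463 FPKM under the IL-10-/- label. Etnk2, 2.34 Mb from Il10, was at 0.310, 0.524 and 0.277 FPKM in WT and at 0, 0 and 0.040 FPKM in the others. All these genes were chosen after their values were seen, lie where FPKM carries the most counting error, and were not tested.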
